A study of Mus musculus with 8 samples.

Results

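The 31 genes described here carry fatty acids into the heart muscle cell, burn them in the mitochondrion, or answer to PPAR-alpha, the nuclear receptor that senses them. They are a fixed list of symbols, each found once among the 38293 Ensembl genes of a count table, and all 31 passed the filter on low counts that left 14567 genes. Of these, 22 encode steps of uptake, oxidation and electron transfer, 7 are targets that climb with fasting, and 2 (Ppara and Ppargc1a) are regulators. Poly(A) RNA was sequenced from the cardiac ventricles of mice aged 8 weeks, left and right mixed. Heterozygotes for the Pkp2 allele that the series title writes as c.1755delA and the genotype label as PKP2 c.1755A/WT (HET, 4 samples) were set against wild types labelled PKP2 WT/WT (WT, 4 samples). Housing is labelled as standard, and the labels record neither feeding nor the hour of dissection. No other allele or treatment is given, nor whether each sample is 1 mouse, so the tests speak of the spread between these samples, which may be technical.

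Plakophilin-2, the product of Pkp2, belongs to the desmosome, which couples neighbouring heart muscle cells. The series title concerns the breakdown of desmosomal proteins in arrhythmogenic cardiomyopathy, an inherited disease of heart muscle. In CPM (depth-scaled counts, on library sizes scaled by TMM, edgeR's trimmed mean of ratios), Pkp2 stood at 99.2, 88.2, 96.04 and 106 CPM in HET replicates 1 to 4, against 169, 168, 148 and 166 CPM in WT replicates 1 to 4, and it was the single gene called over all genes (log2 fold change -0.74 with a standard error of 0.0653 and a Benjamini-Hochberg adjusted p of 0.00376 in edgeR's quasi-likelihood test). Total counts were 32397302 to 38611008 in HET and 38510257 to 41234883 in WT. Cardiomyocyte markers summed to 83353 to 88086 CPM in HET and 79101 to 84494 CPM in WT, and the 5 atrial markers to 220.1 to 463 CPM in HET and 271 to 356 CPM in WT, nearly all of it Nppa, while Sln and Myl7 held at most 0.112 CPM in any library. Mitochondrially encoded genes took 17.1% to 19.1% of counts in HET and in WT replicates 1, 2 and 4, and 14.7% in WT replicate 3. That library also held the most macrophage marker RNA, 369 CPM in sum against 231 to 264 CPM elsewhere.

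The adult heart draws most of its energy from fatty acids. They enter through CD36, are bound by FABP3 and activated to acyl-CoA by ACSL1, and cross the mitochondrial membranes as carnitine esters made by CPT1 and undone by CPT2. In the matrix each turn of the beta-oxidation spiral shortens the chain, and the electrons pass through ETF and its dehydrogenase to the respiratory chain. PPAR-alpha, a receptor that binds DNA with RXR and is helped by the coactivator PGC-1-alpha (Ppargc1a), is activated by fatty acids, and its targets Pdk4, Ucp3 and Angptl4 are known to climb in the fasted heart. PDK4 shuts the pyruvate dehydrogenase complex and so spares glucose.

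PPAR-alpha binds direct repeats of the hexamer AGGTCA spaced by 1 base of any kind. The 250 bases before each RefSeq start (GRCm38.p6) were searched on both strands for the hexamer and for the repeat with up to 2 mismatches outside the spacer. RefSeq windows matched 27 of the 31 genes (29 windows), and Acaa2, Angptl4, Cpt1b and Decr1 had none. The hexamer stood in 7 of the 29 windows (24.1%) and in 14.02% of all 32851 windows. A near repeat stood in 4 of the 29 (13.8%) and in 3.24% of all, an exact repeat in 0 of the 29 and in 0.0335% of all; a near repeat may contain the hexamer. The 4 near repeats are printed because they are the closest matches to the receptor's motif among the 29 windows of these genes. They run 5′ to 3′ on the strand of the repeat, with capitals for letters that match it.
Ucp3: AGGTttcAGGTCA
Cd36: AaGTCAgAGGcCA
Etfa: AGGgCAaAGGTaA
Echs1: AGGTCAcgGGTCc

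The match of Ucp3 lies at chr7:100472940-100472952, that of Cd36 at chr5:17835947-17835959, that of Etfa at chr9:55512308-55512320 and that of Echs1 at chr7:140116492-140116504. In the GENCODE M21 annotation the gene Cd36 runs from 17781690 to 17888801 on the minus strand. Its match thus lies inside the gene, before an internal start. Some other windows searched, such as that of Cpt1a, also lie inside the gene. A match is a description of letters and not a bound site. Upstream windows of Pdk4 (chr6:5496279-5496528, minus strand) and Ucp3 (chr7:100472741-100472990, plus strand) are shown because the levels of these genes varied together across the libraries. The region before Hadhb (chr5:30155003-30155252, plus strand) is shown because it lies between the start of Hadhb and that of Hadha on the other strand, 272 bases apart, by these RefSeq starts upstream of both subunit genes of the mitochondrial trifunctional protein. In GENCODE M21 the gene Hadha reaches to 30155162, inside this region. Capitals mark the hexamer and the near repeat.
Pdk4: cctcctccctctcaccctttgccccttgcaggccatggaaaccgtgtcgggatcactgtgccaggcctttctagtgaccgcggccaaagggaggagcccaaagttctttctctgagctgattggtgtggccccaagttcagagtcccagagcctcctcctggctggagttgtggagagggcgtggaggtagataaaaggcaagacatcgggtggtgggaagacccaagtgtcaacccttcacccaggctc
Ucp3: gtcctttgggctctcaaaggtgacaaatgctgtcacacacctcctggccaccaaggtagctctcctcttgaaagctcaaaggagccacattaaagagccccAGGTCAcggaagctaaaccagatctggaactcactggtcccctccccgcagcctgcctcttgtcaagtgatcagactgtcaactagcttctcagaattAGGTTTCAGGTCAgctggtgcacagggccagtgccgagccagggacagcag
Hadhb: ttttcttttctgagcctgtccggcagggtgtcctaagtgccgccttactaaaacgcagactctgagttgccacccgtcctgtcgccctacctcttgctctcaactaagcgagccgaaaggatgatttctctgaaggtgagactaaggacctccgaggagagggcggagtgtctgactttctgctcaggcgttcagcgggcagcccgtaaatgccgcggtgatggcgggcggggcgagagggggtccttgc
Ucp3 held the hexamer at 2 places, the nearer to the start within the near repeat, and the windows of Pdk4 and Hadhb held neither motif. These letters say nothing of sites outside the windows.

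Per kilobase of exon, Fabp3, Acaa2, Acadl and Etfb had the highest mean levels, and Acot1, Cpt1b, Angptl4 and Ppara had the lowest. Exon length is the union of all annotated exons of a gene. It was 8286 bases for Echs1 and 7642 for Cpt1a, whose longest coding transcripts hold 1557 and 4317 bases. For Fabp3 (823 bases) and Acaa2 (1516 bases) both lengths were equal. The order of the genes thus depends in part on annotation. Fabp3, the cytosolic fatty acid carrier of heart muscle, had the highest level, 1411 ± 47.7 in HET and 1435 ± 104 in WT (CPM per kb, SD, n = 4 each). The thiolase gene Acaa2 followed at 610.2 ± 31.8 in HET and 601 ± 66.99 in WT, the long-chain dehydrogenase gene Acadl at 571 ± 26.4 in HET and 556 ± 46.4 in WT and the ETF subunit gene Etfb at 486 ± 40.9 in HET and 477 ± 56.8 in WT. Fabp3 stood above Acaa2 by far more than their SDs, whereas Acaa2 and Acadl did not differ beyond their spread. Pdk4 stood at 213 ± 108 in HET and 251 ± 63.95 in WT CPM per kb, within the range of the enzymes, and Ppara at 7.85 ± 1.45 in HET and 6.69 ± 1.76 in WT. The liver form of carnitine palmitoyltransferase 1, Cpt1a, was at 7.81 ± 0.693 in HET and 8.97 ± 1.14 in WT and the muscle form Cpt1b at 5.72 ± 0.212 in HET and 5.63 ± 0.585 in WT CPM per kb. The Cpt1b value is uncertain: 93.0% of the 50-base words of its longest coding transcript also occur in Gm44502, a gene annotated across Chkb and Cpt1b. The same share was 67.3% for Etfb (with Gm45233), 62.4% for Hadhb (mainly with the pseudogene Gm13910), 37.3% for Fabp3 (mainly with Fabp3-ps1), 33.2% for Acot1 and 27.7% for Acot2 (mainly with each other) and 24.0% for Acadvl (with Dvl2, on the opposite strand). Gm44502 and Gm45233 have no row in the count table, whereas Gm13910, Fabp3-ps1 and Dvl2 do. How the authors' counting treated reads from shared sequence is not given in the sources used here, so the levels of the genes that share it are uncertain.

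**Figure D1:**
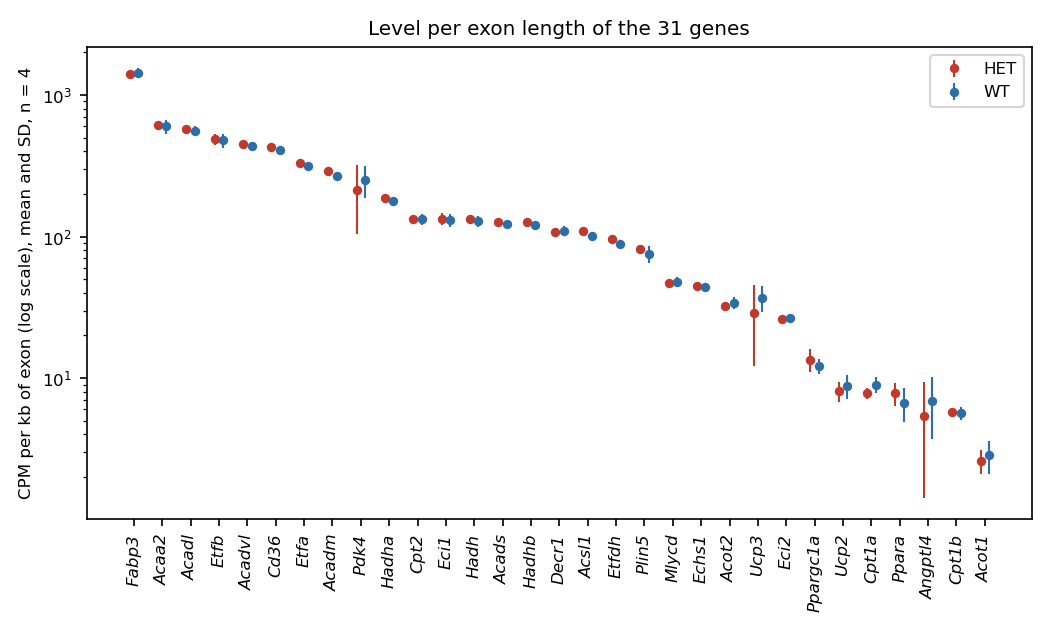
Level of each of the 31 genes in CPM per kb of exon (log scale), with HET in red left of WT in blue, mean and SD over 4 libraries each. Fabp3 is at the top and Acot1 at the bottom, and the widest error bars belong to Pdk4, Ucp3 and Angptl4.

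None of the 31 genes passed the test between HET and WT. Over all genes 0 of 14567 were called higher in HET (0.00%) and 1 was called lower (0.00686%) at an adjusted p of 0.05 in edgeR, and with DESeq2 7 higher (0.0481%) and 6 lower (0.0412%), none of them a member. At an unadjusted p under 0.05 stood 3 members, Acsl1, Acadm and Etfdh, all with the higher mean in HET, beside 2.75% of all genes tested in that direction and 7.73% of the 1371 genes with a mean of at least 100 CPM; 0 members stood there with the lower mean in HET, beside 3.63% of all genes. Of the 31 log2 fold changes 20 were positive (median 0.02), against 48.5% of all genes tested (median -0.00) and 73.0% of genes at 100 CPM or more (median 0.04). Of the 23 members at that level 17 were positive (73.9%, median 0.04), a share near that background. With library-size scaling in place of TMM, 12 of the 31 were positive (median -0.02), where the median over all genes tested was -0.05. The groups did not overlap, with HET above WT, for 2 members, Hadhb and Etfdh, beside 1.70% of all genes and 4.96% of genes at 100 CPM or more. For 0 members did HET lie wholly below WT, beside 2.08% of all genes and 0.948% of those at 100 CPM or more. With library-size scaling HET lay wholly above WT for 0 members.

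**Figure D2:**
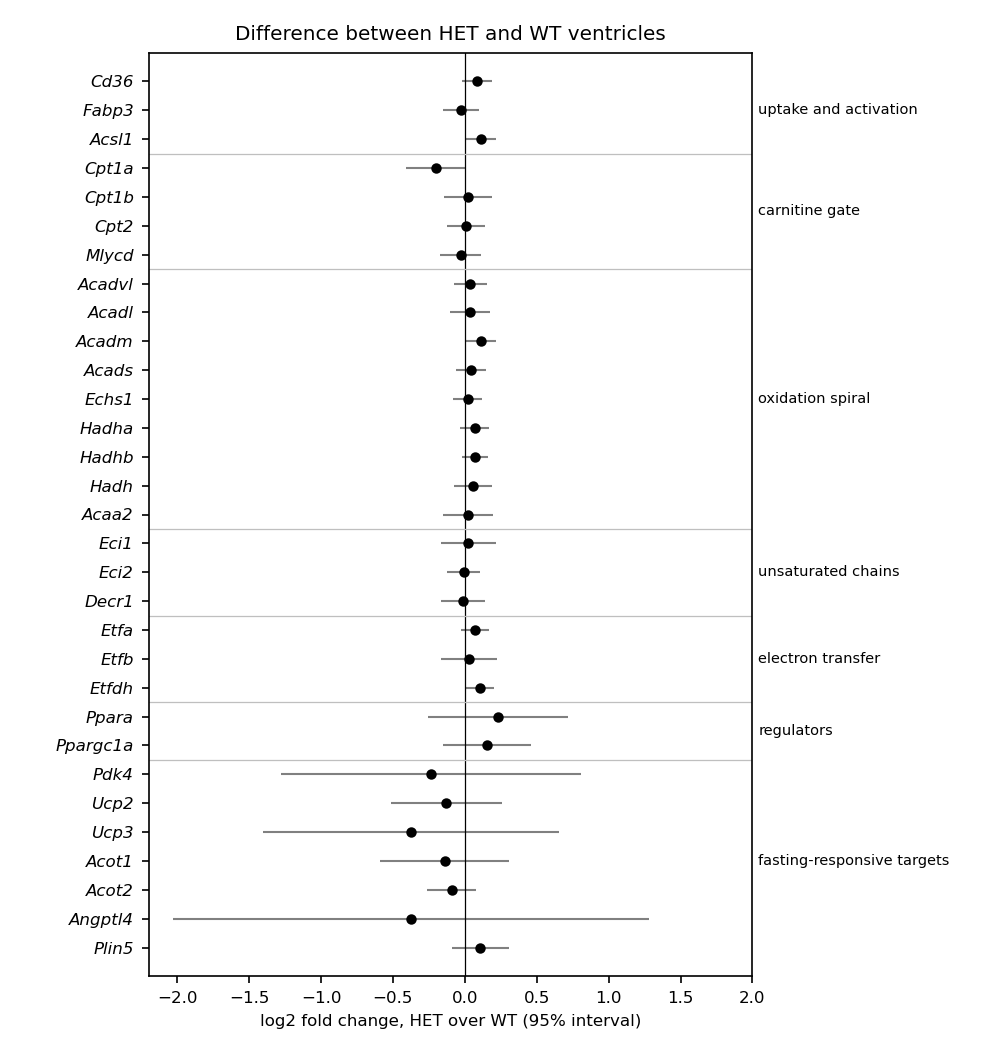
Log2 fold change of HET over WT for each of the 31 genes with its 95% interval from edgeR's fit, grouped by role. The genes of uptake, oxidation and electron transfer sit between -0.03 and 0.11, apart from Cpt1a at -0.20, and the intervals of Pdk4, Ucp3 and Angptl4 span the most.

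Genes of uptake and activation lay close together in the 8 libraries. Cd36, the membrane transporter, was at 1463, 1607, 1562 and 1561 CPM in HET replicates 1 to 4, against 1488, 1431, 1396 and 1520.3 CPM in WT replicates 1 to 4. Acsl1, which joins coenzyme A to long chains, was at 1189, 1086, 1149.7 and 1182 CPM in HET replicates 1 to 4, against 1066, 1071, 1018 and 1109 CPM in WT replicates 1 to 4. HET replicates 1, 3 and 4 of Acsl1 lay above every WT library, while HET replicate 2 lay below WT replicate 4. The log2 fold changes were 0.09 (95% CI -0.02 to 0.19) for Cd36 and 0.11 (95% CI 0.01 to 0.22) for Acsl1, and neither passed (edgeR, adjusted p = 0.770 for each). The log2 fold change of Fabp3 was -0.02 (95% CI -0.15 to 0.10).

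At the carnitine gate Cpt1a had the lower mean in HET. It stood at 55.1, 61.5, 55.7 and 66.3 CPM in HET replicates 1 to 4, against 62.2, 79.02, 60.7 and 72.3 CPM in WT replicates 1 to 4, and the groups overlapped: WT replicates 2 and 4 were highest, and HET replicate 4 lay above WT replicates 1 and 3. Its log2 fold change was -0.20, 95% CI -0.41 to 0.01 (edgeR, adjusted p = 0.770), and without WT replicate 2 it was -0.12. Cpt1b was at 18.4, 19.7, 19.1 and 19.98 CPM in HET replicates 1 to 4, against 18.8, 18.1, 17.2 and 21.8 CPM in WT replicates 1 to 4, and its log2 fold change was 0.02 (95% CI -0.14 to 0.19). The log2 ratio of Cpt1a over Cpt1b averaged 1.62 ± 0.08 in HET and 1.84 ± 0.19 in WT (SD, n = 4 each), exact permutation p = 0.0571, two-sided, and 0.171 after Benjamini-Hochberg adjustment over 6 ratios. The shared sequence of Cpt1b limits this ratio. Cpt2, which frees the acyl group inside the mitochondrion, was at 317 ± 3.89 CPM in HET against 316 ± 26.6 CPM in WT (SD, n = 4 each), and its range in HET (312 to 320 CPM) lay inside that in WT (285 to 343 CPM). Mlycd, which removes the CPT1 inhibitor malonyl-CoA, was at 139.6 ± 9.31 CPM in HET against 142 ± 10.04 CPM in WT.

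All 9 genes of the spiral had a positive log2 fold change, between 0.02 and 0.11, and none passed the test. With library-size scaling Acadvl, Acadl, Echs1 and Acaa2 were below 0, as was the median over all genes tested (-0.05). Acadm, the medium-chain dehydrogenase whose loss causes the most common inherited defect of this pathway in people, stood at 1118, 1154, 1103 and 1164 CPM in HET replicates 1 to 4, against 991, 1106, 1018 and 1079 CPM in WT replicates 1 to 4. The lowest HET library (replicate 3) lay just under the highest WT library (replicate 2), and all other HET libraries lay above all WT libraries. Its log2 fold change of 0.11 (95% CI 0.01 to 0.22) did not pass (edgeR, adjusted p = 0.770). Acadvl, the very-long-chain enzyme, was at 1201 ± 41.4 CPM in HET against 1169 ± 69.05 CPM in WT (SD, n = 4 each), Acadl at 1144 ± 52.9 CPM in HET against 1116 ± 92.99 CPM in WT and the short-chain Acads at 286 ± 8.00 CPM in HET against 278 ± 12.3 CPM in WT. Each of these 3 had a log2 fold change of 0.04, less than the spread between libraries. The log2 ratio of Acadvl over Acadm averaged 0.08 ± 0.06 in HET and 0.16 ± 0.02 in WT (SD, n = 4 each), and every HET library lay below every WT library. Permuting the libraries over all 70 splits (exact, two-sided) gave p = 0.0286, the smallest possible for 4 against 4, and 0.171 after adjustment over 6 ratios, so the ratio was not called. Acadvl shares sequence with Dvl2, and whether such reads were counted for Acadvl is not given in the sources used here.

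Hadha and Hadhb, the subunits of the trifunctional protein whose RefSeq starts flank the region printed above, varied little in their ratio. Hadha stood at 1608, 1617, 1637 and 1669 CPM in HET replicates 1 to 4, against 1453, 1588, 1564 and 1623 CPM in WT replicates 1 to 4. Hadhb stood at 833, 846, 857 and 815 CPM in HET replicates 1 to 4, against 777, 815, 795 and 805 CPM in WT replicates 1 to 4. The lowest HET library of Hadhb (815.5 CPM) lay just above the highest WT library (814.6 CPM), a separation of less than 1 CPM. The log2 fold changes were 0.07 (95% CI -0.03 to 0.17) and 0.07 (95% CI -0.02 to 0.16). The log2 ratio of Hadha over Hadhb in CPM averaged 0.96 ± 0.05 in HET and 0.96 ± 0.04 in WT (SD, n = 4 each; exact permutation p = 1, two-sided). Over the 8 libraries this ratio varied by a factor of 1.09, Acadvl over Acadm by 1.14, Etfa over Etfb by 1.23 and Pdk4 over Pdk2 by 4.12, and Hadhb alone by 1.10. Hadhb had the smallest spread between libraries of a group among the 31 genes (SD 0.0301 on the log2 scale). Echs1, the short-chain hydratase, was at 372 ± 7.53 CPM in HET against 367 ± 15.6 CPM in WT (SD, n = 4 each), Hadh, the short-chain hydroxyacyl-CoA dehydrogenase, at 665 ± 3.89 CPM in HET against 639.6 ± 54.2 CPM in WT, and Acaa2 at 925 ± 48.2 CPM in HET against 910.4 ± 102 CPM in WT. For Hadh the 4 HET libraries lay between 663 and 671 CPM, within the WT range of 591 to 714 CPM.

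The enzymes that feed unsaturated chains into the spiral differed by less than the spread between libraries. Eci1, an enoyl-CoA isomerase, had a log2 fold change of 0.02 (95% CI -0.17 to 0.22), Eci2, of the same family, -0.01 (95% CI -0.12 to 0.11) and Decr1, the dienoyl-CoA reductase, -0.01 (95% CI -0.17 to 0.14). Eci1 ran from 249 to 312 CPM in HET and from 243 to 314 CPM in WT. Decr1 ran from 399 to 461 CPM in HET and from 375 to 452 CPM in WT. The groups overlapped for each of the 3.

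In electron transfer Etfdh, the dehydrogenase that hands the electrons to ubiquinone, was separate between groups. It stood at 711, 697, 719 and 738 CPM in HET replicates 1 to 4, against 637, 672, 660.3 and 694 CPM in WT replicates 1 to 4, so that the lowest HET library (replicate 2) lay above the highest WT library (replicate 4). The log2 fold change was 0.11 (95% CI 0.01 to 0.20) and did not pass (edgeR, adjusted p = 0.770). Etfa was at 603, 602, 608 and 617 CPM in HET replicates 1 to 4, against 548, 609, 569.8 and 588 CPM in WT replicates 1 to 4, and Etfb at 575, 629, 534 and 524 CPM in HET replicates 1 to 4, against 482, 632, 524 and 584 CPM in WT replicates 1 to 4. The HET libraries of Etfa lay between 602 and 617 CPM, whereas Etfb spanned 524 to 629 CPM in HET and 482 to 632 CPM in WT. The log2 ratio of Etfa over Etfb averaged 0.11 ± 0.13 in HET and 0.07 ± 0.11 in WT (SD, n = 4 each; exact permutation p = 0.686).

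Summed over the 22 genes of uptake, oxidation and electron transfer, the level was 15247, 15545, 15175 and 15374 CPM in HET replicates 1 to 4, against 13909.8, 15439, 14350.1 and 15433 CPM in WT replicates 1 to 4. HET replicate 2 was highest of all 8, WT replicates 1 and 3 were lowest, and the groups overlapped. These genes held 1.53% of the scaled counts in HET and 1.48% in WT. For cardiomyocyte markers 8 of 10 log2 fold changes were positive (median 0.02), beside 73.0% of genes at 100 CPM or more (median 0.04). WT replicates 1 and 3 were also lowest in the sum of these markers. In whole tissue, a changed share of muscle cells and changed RNA per cell cannot be told apart, and the part of either was not tested. Titles of the samples hold a run of 4 digits that HET replicates 1, 3 and 4 share with WT replicate 1, and HET replicate 2 with WT replicates 3 and 4; the labels do not say what it marks. Of the 31 genes 25 had the higher mean log2 level in HET within the first set (median difference 0.12) and 19 within the second (0.03). The only WT library of the first set is WT replicate 1, lowest of all 8 in the sum above. The only HET library of the second is HET replicate 2, the highest. No share over all genes was taken within the sets or with the digits as covariate, so these counts of signs have no background. With these digits as covariate, a fit in which WT replicate 2 carries no weight as the sole library of its digits, 21 of the 22 genes were positive and none passed.

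**Figure D3:**
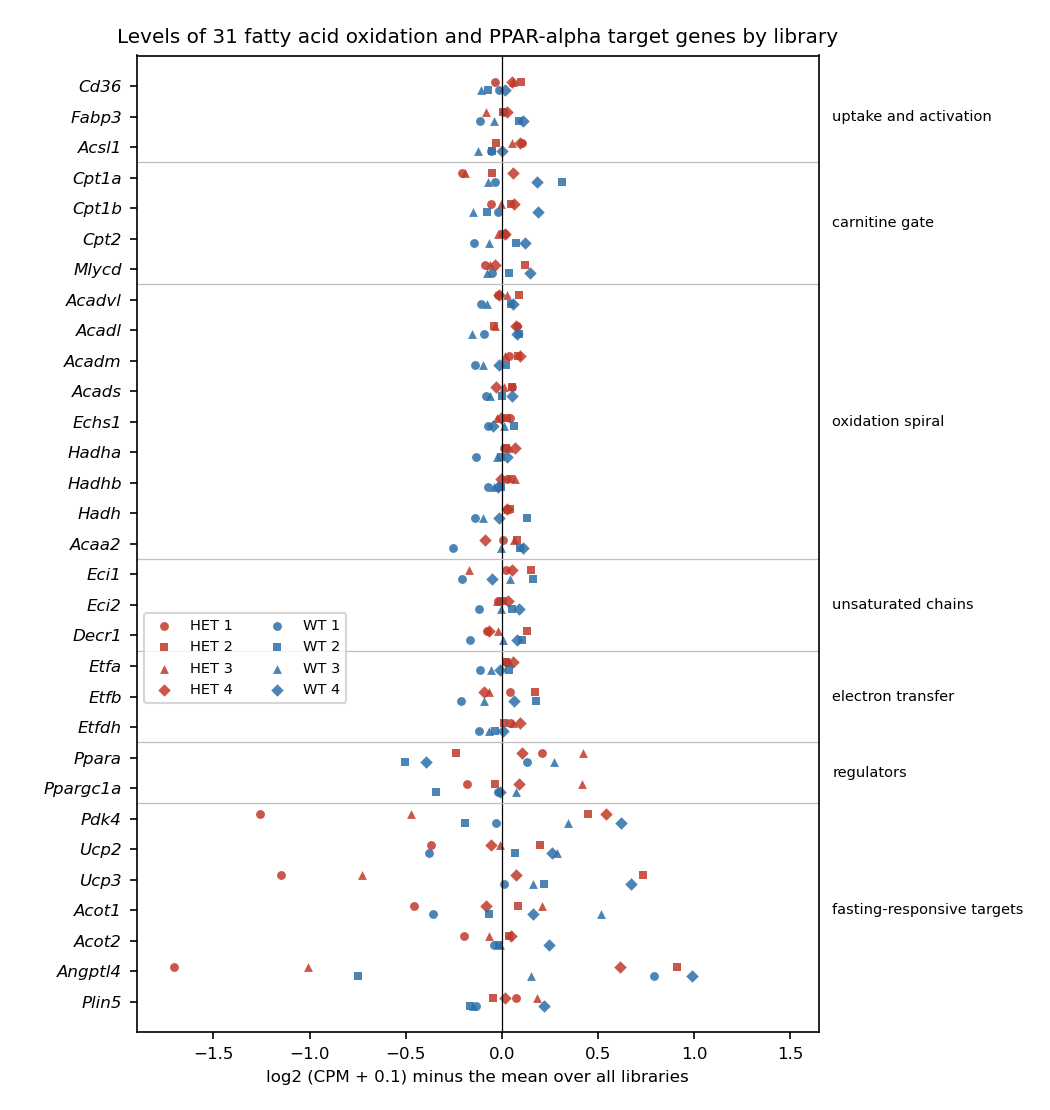
Level of each gene in each library, as log2 (CPM + 0.1) minus the mean of the gene over the 8 libraries, HET in red above WT in blue, with symbols for replicates. Oxidation genes stay close to their means. Pdk4, Ucp3 and Angptl4 spread more widely in HET than in WT, with HET replicates 1 and 3 lowest. Ucp3 spans 3.69-fold in HET and 1.58-fold in WT.

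The fasting-responsive targets, whose sum was 651, 1534, 935 and 1533 CPM in HET and 1139, 1071, 1389.6 and 1704 CPM in WT, spread more widely than the enzyme genes. The SD of log2 (CPM + 0.1) around the group means had a median of 0.332 over the 7 targets and of 0.0761 over the 22 enzyme genes. The median was 0.134 over all genes tested and 0.0944 over those with at least 10 CPM. Over those with at least 100 CPM, where most of the enzyme genes lie, it was 0.0830, near that of the enzyme genes. Angptl4 (1.05), Pdk4 (0.654) and Ucp3 (0.625) lay above 99.7%, 99.2% and 99.2% of the genes with at least 10 CPM. Acot1 (0.332) and Ucp2 (0.273) followed, and Plin5 (0.149) and Acot2 (0.123) lay near the less even enzymes such as Etfb (0.148) and Cpt1a (0.156). These are descriptions of the libraries, and the difference in spread was not tested.

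**Figure D4:**
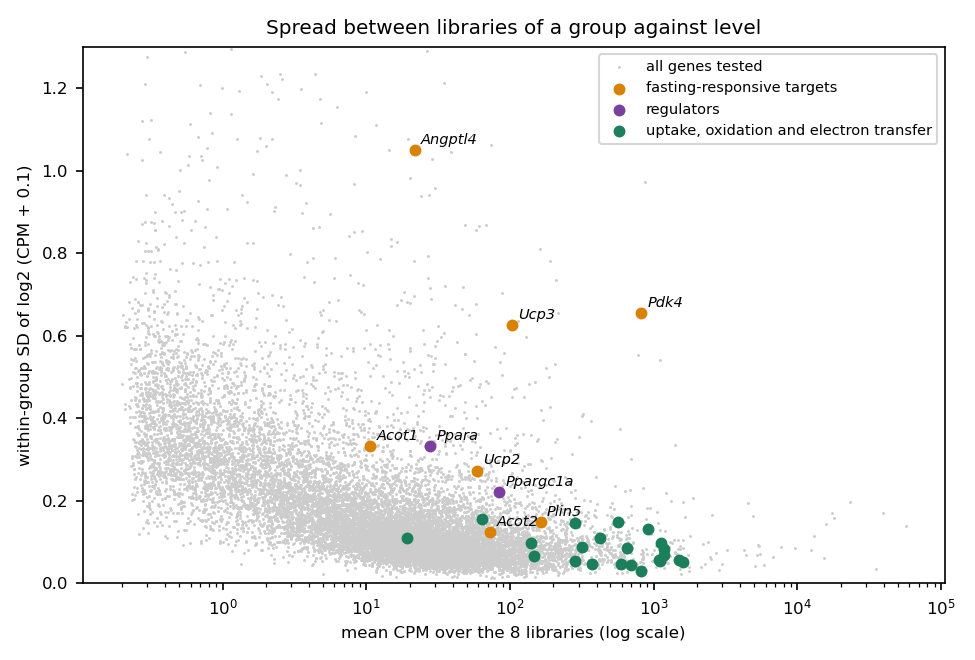
Within-group SD of log2 (CPM + 0.1) against mean CPM (log scale) for all genes tested (grey; the few above 1.3 are outside the axis) and the 31 genes (coloured by role). Angptl4, Pdk4 and Ucp3 stand well above genes of like level, and the genes of uptake, oxidation and electron transfer lie below 0.16.

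Pdk4, the pyruvate dehydrogenase kinase induced by fasting (ENSMUSG00000019577; chromosome 6, 5483351 to 5496309, minus strand, GRCm38), stood at 315, 1032, 544 and 1099 CPM in HET replicates 1 to 4, against 739.8, 662, 959 and 1159 CPM in WT replicates 1 to 4. HET replicate 1 was lowest of all 8 and HET replicate 3 next, whereas HET replicates 2 and 4 lay among the highest, so HET spanned 3.49-fold and WT 1.75-fold and the groups overlapped. The log2 fold change was -0.23, 95% CI -1.28 to 0.81 (edgeR, adjusted p = 0.925). Leaving out HET replicate 1 brought it to 0.02 and leaving out HET replicate 4 to -0.48. This interval holds differences in either direction, and none was called.

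Ucp3, the mitochondrial carrier of muscle known as uncoupling protein 3, also had HET replicates 1 and 3 lowest. It stood at 42.9, 158, 57.4 and 100.1 CPM in HET replicates 1 to 4, against 95.9, 111, 106 and 152 CPM in WT replicates 1 to 4, and HET replicate 2 was highest of all. Its log2 fold change was -0.37 (95% CI -1.41 to 0.66), and it ranged from -0.80 (HET replicate 2 left out) to -0.14 (HET replicate 1 left out). Ucp2, its broadly expressed relative, was at 45.1, 66.96, 57.8 and 55.97 CPM in HET replicates 1 to 4, against 44.9, 61.01, 71.03 and 69.9 CPM in WT replicates 1 to 4 (log2 fold change -0.13, 95% CI -0.52 to 0.26). HET replicate 1 and WT replicate 1 were lowest, and the groups overlapped.

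Angptl4, a secreted inhibitor of lipoprotein lipase, varied most of the 31 genes, 6.59-fold over the 8 libraries. It stood at 5.46, 33.98, 8.93 and 27.7 CPM in HET replicates 1 to 4, against 31.4, 10.7, 20.1 and 35.98 CPM in WT replicates 1 to 4. HET replicates 1 and 3 and WT replicate 2 were lowest, and the other 5 libraries held 20.1 CPM or more. Its log2 fold change was -0.37 (95% CI -2.03 to 1.28). It ranged from -0.81 (HET replicate 2 left out) to -0.06 (HET replicate 1 left out). Lpl, its target enzyme, was at 5324, 5518, 5897 and 5517 CPM in HET replicates 1 to 4, against 4976, 5461, 5031 and 4500.4 CPM in WT replicates 1 to 4 and did not pass (log2 fold change 0.16, 95% CI 0.02 to 0.29; edgeR, adjusted p = 0.770).

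The acyl-CoA thioesterases Acot1 (cytosolic) and Acot2 (mitochondrial) are neighbours on chromosome 12 and split fatty acyl-CoA. Acot1 stood at 7.58, 11.1, 12.1 and 9.85 CPM in HET replicates 1 to 4, against 8.12, 9.96, 14.96 and 11.7 CPM in WT replicates 1 to 4, with HET replicate 1 lowest and WT replicate 3 highest. Acot2 stood at 63.3, 74.3, 69.1 and 74.97 CPM in HET replicates 1 to 4, against 70.6, 71.7, 71.9 and 85.8 CPM in WT replicates 1 to 4, with HET replicate 1 lowest and WT replicate 4 highest. Their log2 fold changes were -0.14 (95% CI -0.59 to 0.31) and -0.09 (95% CI -0.26 to 0.08), and the log2 ratio of Acot1 over Acot2 was -2.80 ± 0.24 in HET and -2.76 ± 0.36 in WT (SD, n = 4 each; exact permutation p = 0.886). Reads shared by the pair can blur this ratio. Plin5, a lipid droplet coat protein of oxidative tissue, was the 1 target with a positive log2 fold change, 0.11 (95% CI -0.09 to 0.31), at 172, 158, 185 and 165 CPM in HET replicates 1 to 4, against 148, 145, 147 and 189.7 CPM in WT replicates 1 to 4. WT replicate 4 was highest and the other 3 WT libraries were below every HET library.

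Across the 8 libraries Angptl4 and Ucp3 followed Pdk4. For Angptl4 Pearson's r on log2 values was 0.91 (exact permutation p = 0.00243, 0.0450 after Benjamini-Hochberg adjustment over 30 genes) and Spearman's rho 0.88 (exact p = 0.00724, adjusted 0.109). For Ucp3 r was 0.90 (exact p = 0.00300, adjusted 0.0450) and rho 0.71 (exact p = 0.0576, adjusted 0.432). Acot2 had r = 0.85 (exact p = 0.00647, adjusted 0.0647) and rho = 0.98 (exact p = 3.97e-04, adjusted 0.0119). Without HET replicates 1 and 3, the libraries farthest from the median of Pdk4, r was 0.69 for Angptl4 (exact p = 0.106), 0.51 for Ucp3 (exact p = 0.269) and 0.70 for Acot2 (exact p = 0.0819) over 6 libraries, so no call held over those 6, and r was lower for each of the 3 genes without the 2 libraries. Leaving out 1 library at a time, r stayed between 0.84 and 0.96 for Angptl4 and between 0.78 and 0.94 for Ucp3, but over 7 libraries the adjusted call of Ucp3 was lost in all 8 cases and that of Angptl4 in all but the one without WT replicate 1. Taken as deviations from the group means, r was 0.90 for Angptl4, 0.89 for Ucp3 and 0.84 for Acot2. Groups and sets of title digits hold 4 libraries or fewer, too few for a value of their own.

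None of the 22 genes of uptake, oxidation and electron transfer was called for a relation with Pdk4. The largest r among them was that of Mlycd, 0.57, with rho = 0.71 (exact permutation p = 0.137 and 0.0576), the same rho as Ucp3, and rho was 0.64 for Cpt1b, 0.62 for Eci2 and 0.57 for Cpt1a (exact p = 0.0962, 0.115 and 0.151). Over the 9 spiral genes r lay between -0.33 (Hadhb) and 0.15 (Acadvl) and rho between -0.38 (Echs1) and 0.36 (Acadvl), and the exact permutation p-values of r were 0.424 or more. Without HET replicates 1 and 3, r was 0.64 for Hadha and 0.67 for Etfdh, above the 0.51 of Ucp3, and a difference between these genes and the targets was not tested. Ppara, at 31.6, 23.1, 36.5 and 29.3 CPM in HET replicates 1 to 4, against 29.8, 19.2, 32.96 and 20.7 CPM in WT replicates 1 to 4, had r = -0.38 and rho = -0.48 (exact p = 0.353 and 0.243), and Ppargc1a, at 73.6, 81.5, 111 and 88.8 CPM in HET replicates 1 to 4, against 82.4, 65.9, 87.9 and 82.8 CPM in WT replicates 1 to 4, r = 0.15 and rho = 0.29 (exact p = 0.697 and 0.501). HET replicate 3 was highest and WT replicate 2 lowest for both regulators, and their log2 fold changes were 0.23 (95% CI -0.26 to 0.71) and 0.16 (95% CI -0.15 to 0.46). With the title digits as covariate that of Ppara was -0.04, and without HET replicate 3 that of Ppargc1a was 0.03. Summed adipocyte markers, at 8.69 and 11.8 CPM in HET replicates 1 and 3 and 1.01 to 3.65 CPM in the other 6 libraries, moved against Pdk4 (r = -0.61 and rho = -0.43, exact permutation p = 0.108 and 0.299, adjusted p = 0.425 for r over 11 library measures; r = 0.26 without HET replicates 1 and 3). Of these 7 markers Lep was at 0 counts in every library and 4 passed the filter, all 4 with positive log2 fold changes, and their part in the pattern was not tested. For total counts r was -0.34 (rho = -0.38, exact permutation p = 0.398 and 0.360) and for the mitochondrially encoded share -0.16 (rho = -0.12, exact permutation p = 0.681 and 0.793), and none of the 11 measures passed. Larger values were those of the summed atrial markers (r = -0.67 and rho = -0.31, exact permutation p = 0.0701 and 0.462) and brown adipocyte markers (r = 0.59 and rho = 0.71, exact permutation p = 0.116 and 0.0576; r = 0.70 without HET replicates 1 and 3). Nearly all of the brown adipocyte sum was Cidea (22.6 to 28.8 CPM), while Ucp1 and Elovl3 held at most 0.333 CPM in any library. For macrophage markers r was 0.37 and rho 0.69 (exact permutation p = 0.312 and 0.0694).

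**Figure D5:**
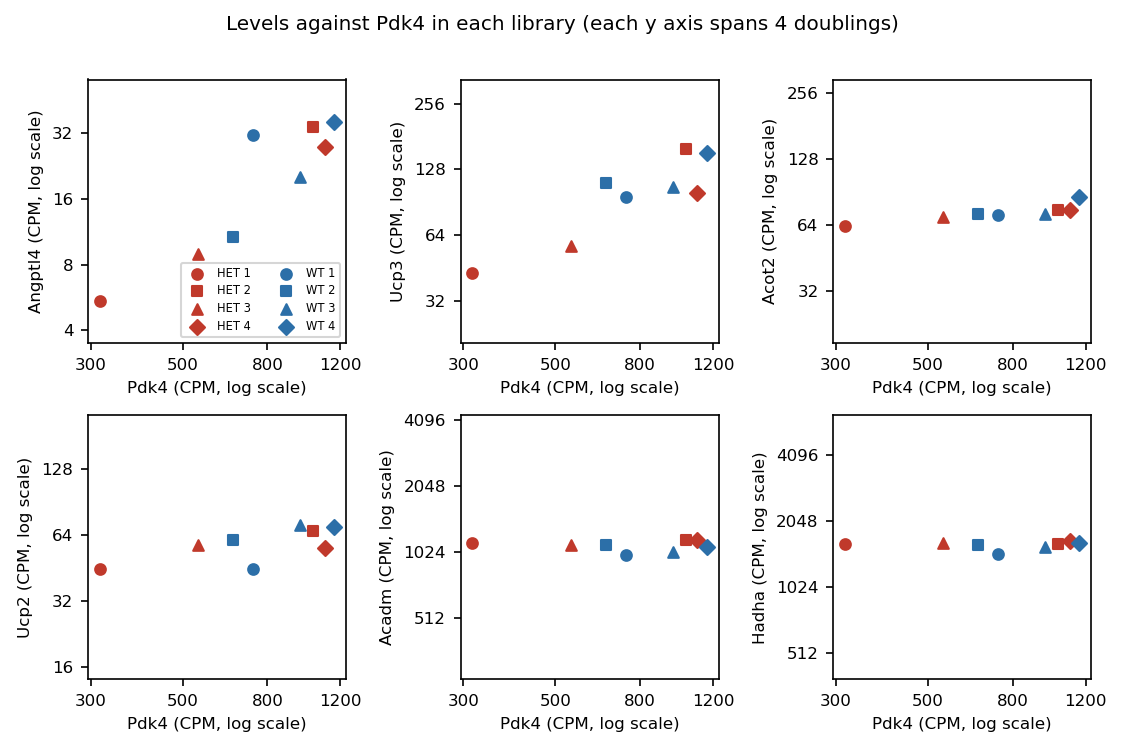
Level of 6 genes against Pdk4 in each of the 8 libraries, in CPM on log scales, HET in red and WT in blue with symbols for replicates; each y axis spans 4 doublings. HET replicates 1 and 3 are lowest for Pdk4 and lowest for Angptl4 and Ucp3; Acot2 and Ucp2 span less, and Acadm and Hadha stay nearly level.

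The other genes of fatty acid handling, taken from 5 lists, gave 0 calls in 91 tested of 96, beside the 0.00% and 0.00686% of all genes. Of the 91, 58 were positive (63.7%, median 0.04). For the signs in each list, the background was 48.5% positive over all genes tested. It was 56.9% at 10 CPM or more and 73.0% at 100 CPM or more. Of 16 tested genes of uptake and carnitine exchange 8 were positive (median -0.01). Their smallest p-values were those of Lpl and Acacb, the mitochondrial acetyl-CoA carboxylase that makes the CPT1 inhibitor malonyl-CoA, at 566, 582, 649 and 599 CPM in HET replicates 1 to 4, against 548, 546, 558 and 551 CPM in WT replicates 1 to 4. Every HET library of Acacb lay above every WT library, and its log2 fold change was 0.12 (95% CI 0.01 to 0.23). Of 16 other mitochondrial oxidation genes 13 were positive (median 0.04), with Acadsb at 0.12 (95% CI -0.01 to 0.25) and Mut, methylmalonyl-CoA mutase, at 0.24 (95% CI -0.02 to 0.49).

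Of 16 tested peroxisomal genes 10 were positive (median 0.01), among them the transporter gene Abcd2 (0.21, 95% CI -0.03 to 0.46). Of 24 receptors and coregulators 19 were positive (median 0.07). Perm1, a muscle partner of PGC-1-alpha, was at 492 ± 40.3 CPM in HET against 438 ± 34.7 CPM in WT (SD, n = 4 each), with a log2 fold change of 0.17 (95% CI 0.01 to 0.33). Of 19 tested genes of ketone use, lipolysis and pyruvate gating 8 were positive (median -0.07). Oxct1, which starts ketone use, stood at 1588, 1475, 1555 and 1534 CPM in HET replicates 1 to 4, against 1499, 1329, 1338 and 1314 CPM in WT replicates 1 to 4, with HET replicate 2 below WT replicate 1. Pdk2, another kinase of pyruvate dehydrogenase, stood at 591, 567, 585 and 579.6 CPM in HET replicates 1 to 4, against 546, 541, 535 and 527 CPM in WT replicates 1 to 4, so that each HET library lay above each WT library. The log2 fold changes were 0.17 (95% CI 0.05 to 0.28) for Oxct1 and 0.11 (95% CI 0.02 to 0.20) for Pdk2 (edgeR, adjusted p = 0.770 for each). The log2 ratio of Pdk4 over Pdk2 was 0.19 ± 0.87 in HET and 0.68 ± 0.39 in WT (SD, n = 4 each), and the exact permutation p was 0.429 (two-sided; 0.857 over 6 ratios).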

How the data were processed

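The deposited values are read counts per Ensembl gene, whole numbers that were not normalised, in 8 columns that each carry the title of 1 sample. The submitters' processing notes name STAR 2.4.2a, HTSeq 0.6.1 and the build GRCm38/mm10, and the authors' counts are taken as given; per the labels' protocols, RNA came from Trizol extraction and a stranded TruSeq poly(A) kit. The annotation release and strand setting are not given in the sources used here. Symbols were matched by Ensembl identifier (36345 of 38293 genes; the rest held 0.143% of counts), and positions and exon lengths came from GENCODE M21 (GRCm38).

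The fit of these counts used edgeR 4.0.16 (R 4.3.3) with filterByExpr, TMM scaling, the robust quasi-likelihood test without covariate and Benjamini-Hochberg adjustment over all genes tested, at 0.05. Fold changes are HET over WT; standard errors come from the F statistic. CPM are on TMM-scaled library sizes; correlations and ratios used log2(CPM + 0.1). Ratios were tested by exact permutation over 70 splits, and correlations over all pairings. The code was tested on simulated data. Replicates were numbered in order of deposition and pair nothing.

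The 31 genes and all lists were chosen with earlier results of these data known. Named are Pkp2, all 31 genes and, in each other list, genes past the threshold or otherwise the 2 of smallest p; some of these are not reported here. Alternatives tried were scaling by RLE, by the upper quartile or by library size alone, mitochondrially encoded genes left out, no filter and a filter of 1 CPM in 4 samples, DESeq2 1.42.0, limma-voom (limma 3.58.1), the title digits as covariate, a pseudocount of 1 CPM, and each library left out.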

Additional observations from a re-analysis of the deposited data

Results flagged for a closer look

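In 74 groups of 4 values (31 genes and 6 ratios in HET and in WT), a library lay far from the other 3 in 4 cases by Dixon's test, where chance flags about 1 in 20 groups. Hadh was at 671 CPM in HET replicate 2 and at 662.96 to 663.18 CPM in the other HET libraries. Acot2 was at 85.8 CPM in WT replicate 4, against 70.6 to 71.9 CPM in the other WT libraries. Plin5 was at 190 CPM in the same library, against 145 to 148 CPM. WT replicate 4 was also the highest of all 8 libraries for Pdk4 and Angptl4. The log2 ratio of Hadha over Hadhb was 1.03 in HET replicate 4, against 0.93 to 0.95 in the other HET libraries.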

How the results depend on the processing

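None of the 31 genes passed under any of the 17 alternatives, among them DESeq2 and limma-voom, and 15 kept the sign of their log2 fold change in all of them while 16 did not. With library-size scaling 12 members were positive, 0 were separate with HET above WT and 1 had an unadjusted p under 0.05, and Cpt1b (-0.019), Cpt2 (-0.036), Acadvl (-0.0025), Acadl (-0.0048), Echs1 (-0.022), Acaa2 (-0.020), Eci1 (-0.018) and Etfb (-0.015) turned negative. With upper-quartile scaling 1 member had such a p and Cpt2 was at -0.011; with limma-voom Cpt1b was at -0.00032 and Cpt2 at -0.0029. With the title digits as covariate 6 members had such a p, and Fabp3 (0.037), Mlycd (0.035), Eci2 (0.044), Decr1 (0.10), Ppara (-0.036), Ucp2 (0.090) and Acot1 (0.017) changed sign. Over all genes, DESeq2 called 7 higher and 6 lower, and edgeR without a filter 2 lower. Leaving out 1 library at a time, edgeR called 1 to 3 genes lower (3 without HET replicate 3), 1 to 4 members had an unadjusted p under 0.05, 2 to 5 were separate (5 without WT replicate 2 or 4), and 0 to 1 were correlated with Pdk4 after adjustment. Log2 fold changes then ran from -0.061 to 0.0096 for Fabp3, -0.023 to 0.095 for Cpt1b, -0.037 to 0.048 for Cpt2, -0.077 to 0.016 for Mlycd, -0.0088 to 0.073 for Acadl, -0.048 to 0.064 for Acaa2, -0.034 to 0.086 for Eci1, -0.044 to 0.021 for Eci2, -0.066 to 0.019 for Decr1, -0.034 to 0.094 for Etfb, -0.26 to 0.030 for Acot1 and -0.48 to 0.020 for Pdk4. Differences in log2 ratio ran from -0.024 to 0.015 for Hadha over Hadhb, -0.0015 to 0.097 for Etfa over Etfb and -0.15 to 0.13 for Acot1 over Acot2. With library-size scaling the median log2 fold change over all genes tested was -0.047, against -0.0038 with TMM. Over the 31 genes it was -0.018, against 0.024 with TMM. The cause of the changes between settings was not tested. Shares of all genes with separate groups, or at an unadjusted p under 0.05 in edgeR, were taken only with all libraries, TMM scaling and no covariate. The counts of such members under the alternatives thus have no background of their own. Smaller groups also separate more easily by chance, so the rise to 5 separate members with 1 library left out cannot be read as a stronger difference. No paired analysis was possible because the replicate numbers follow the order of deposition and mark no shared litter, animal or day. The lowest count of any member in any library was 206, for Angptl4, and intervals were widest for Angptl4, Pdk4 and Ucp3, the members with the widest spread between libraries.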

Other observations

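After the values were seen, Pdk4 was also compared across the 8 libraries with the 91 tested genes of the other lists, and 1 of them passed. Lipe, hormone-sensitive lipase, stood at 49.9, 72.5, 57.2 and 69.8 CPM in HET replicates 1 to 4, against 68.6, 62.7, 68.1 and 86.4 CPM in WT replicates 1 to 4, with HET replicates 1 and 3 lowest and WT replicate 4 highest. Its r with Pdk4 was 0.93 (exact permutation p = 1.49e-04, 0.0135 after Benjamini-Hochberg adjustment over 91 genes), its rho 0.95 (exact p = 0.00114), and r was 0.75 (exact p = 0.0514) without HET replicates 1 and 3. Acad9, a mitochondrial acyl-CoA dehydrogenase, ran the opposite way, with r = -0.89 and rho = -0.83 (exact permutation p = 0.00317 and 0.0154; adjusted p = 0.144 for r), and r was -0.60 without HET replicates 1 and 3. The lipid droplet gene Plin2 (r = 0.89) and the peroxisomal gene Ehhadh (r = 0.81) had exact permutation p-values of 0.00685 and 0.0119 and did not pass after adjustment (0.208 and 0.271). Their rho values were 0.74 and 0.76 (exact p = 0.0458 and 0.0368), and without HET replicates 1 and 3 r was 0.32 and 0.52. Txnip, a thioredoxin-binding protein that answers to glucose, was at 478, 958, 574 and 948 CPM in HET replicates 1 to 4, against 989, 664, 449 and 1111 CPM in WT replicates 1 to 4 (r = 0.63 and rho = 0.62, exact p = 0.0813 and 0.115; adjusted p = 0.685 for r), with WT replicate 3 lowest. Lipe, Acad9, Plin2, Ehhadh and Txnip were chosen after their values were seen.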
